A study of Homo sapiens with 12 samples.

Results

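SNAI2, THBS1, CCN1, CCN2, TAGLN, MYL9, AXL, TGM2 and CDH1 are 9 genes tied to epithelial-mesenchymal transition, to the transcriptional coactivator YAP or to the actin cytoskeleton. They were followed in the human colorectal carcinoma line HCT116 by taking every array probe that the platform annotation gives to one of these symbols. The 9 genes had 17 of the 47323 probes, and 15 of these were among the 15772 probes kept after a detection filter. All 9 were among the 11785 genes tested, each through its brightest kept probe, and that probe was detected on all 12 arrays. The set was partly chosen by values of the same arrays, in which SNAI2, THBS1, CCN1 and MYL9 were already known to be lower with the ATM inhibitor in WT cells and SNAI2 to be higher in Wip1-depleted cells. For the 9 genes, both of those comparisons are therefore given below as a description, with no test. Genes outside the 9 were tested in both.

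The 4 groups had 3 arrays each, from cultures that the series text calls biological replicates. Wip1SH+ATMi cells carried a short hairpin RNA against Wip1 and were grown with 10 µM of an ATM inhibitor for 3 days, with the inhibitor replaced daily. Wip1SH cells carried the hairpin without the inhibitor, WT+ATMi cells had the inhibitor without the hairpin, and WT cells had neither. PPM1D is the gene of Wip1, a phosphatase that reverses ATM and p53 signalling, and ATM is the kinase that responds to DNA double-strand breaks. The groups hold no control hairpin, and the labels name no solvent for the untreated cells, so effects of a hairpin as such or of a solvent cannot be told apart from those of the depletion or the inhibitor. All groups come from the same cell line, and the labels do not say whether the hairpin cells are 1 clone.

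Epithelial-mesenchymal transition is a programme in which carcinoma cells loosen their junctions and become motile. SNAI2, also called Slug, is one of the zinc-finger repressors that drive it, and it binds E-box sequences in the promoters of epithelial genes such as CDH1, which encodes E-cadherin. YAP is held in the cytoplasm by the Hippo kinases, and when released it acts with TEAD transcription factors on targets such as CCN1, CCN2 and AXL. Actin assembly acts on a separate factor, SRF, whose targets include TAGLN and MYL9.

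The promoters of 3 of the 9 genes were matched in RefSeq (GRCh38.p14), with 250 bases before the start site and 50 after it. The match left out the chromosome of SNAI2, so the SNAI2 promoter was not searched. Those of the 3 genes are shown because TEAD factors recognise the letters CATTCC or, on the other strand, GGAATG. Capitals mark these 6 letters. AXL has 2 annotated starts, of which the upstream one is printed.
CCN2, chr6:131951323-131951622, minus strand: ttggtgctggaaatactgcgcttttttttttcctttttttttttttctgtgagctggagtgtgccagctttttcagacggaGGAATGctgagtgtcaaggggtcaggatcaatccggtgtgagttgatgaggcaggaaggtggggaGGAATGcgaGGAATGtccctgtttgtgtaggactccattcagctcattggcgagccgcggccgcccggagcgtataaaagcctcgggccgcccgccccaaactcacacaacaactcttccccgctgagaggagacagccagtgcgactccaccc
THBS1, chr15:39580829-39581128, plus strand: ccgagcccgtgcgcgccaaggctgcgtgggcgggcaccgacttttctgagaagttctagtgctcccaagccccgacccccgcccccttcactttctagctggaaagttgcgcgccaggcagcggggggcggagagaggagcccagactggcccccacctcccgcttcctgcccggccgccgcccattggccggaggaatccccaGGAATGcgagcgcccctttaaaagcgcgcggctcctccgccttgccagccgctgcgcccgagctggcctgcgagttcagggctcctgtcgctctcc
AXL, chr19:41218973-41219272, plus strand: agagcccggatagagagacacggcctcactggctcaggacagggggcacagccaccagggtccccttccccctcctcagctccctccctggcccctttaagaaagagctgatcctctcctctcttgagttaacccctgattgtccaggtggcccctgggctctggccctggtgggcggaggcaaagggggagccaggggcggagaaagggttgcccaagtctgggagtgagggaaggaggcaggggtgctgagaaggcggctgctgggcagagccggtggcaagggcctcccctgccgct

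The CCN2 promoter held 3 copies of GGAATG, whose first bases lay at -169, -104 and -95 relative to the start site, and the THBS1 promoter held 1 copy at -46. The printed AXL promoter held none, and the promoter of the other AXL start held 1 CATTCC at -212. At least 1 match was present in 14% of all promoters in the table (4928 of 35116). The letters CACCTG or CAGGTG, the E-box form that Snail proteins bind, were found once, at -106 of the printed AXL promoter, and in 20.6% of all promoters. A search for the CArG box, the site of SRF, found no match in the promoters of these 3 genes and a match in 1.29% of all promoters. TAGLN, MYL9 and CDH1 had no promoter matched, so theirs were not searched for the CArG box or the E-box. A match is a run of letters and not a measured site, and no binding was measured here.

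Brightness differed between the groups before normalization. Mean signals per array were 649 to 746 in Wip1SH+ATMi, 542 to 653 in Wip1SH, 657 to 720 in WT+ATMi and 513 to 535 in WT. Detected probes per array numbered 19505 to 20408, 18568 to 18961, 18723 to 19654 and 17650 to 17929 in the same order of groups. PPM1D, the hairpin's target, was at a normalized log2 intensity of 8.69 to 8.86 in Wip1SH+ATMi and 8.43 to 8.87 in Wip1SH cells, against 10.62 to 10.68 in WT+ATMi and 10.28 to 10.43 in WT cells, with no overlap between hairpin and WT cells. Of 9 colorectal epithelial markers, 5 were detected on all 12 arrays (EPCAM, KRT8, KRT18, KRT19 and CDX2), KRT20 on some, and CDH17, VIL1 and LGALS4 on none. The defining markers of other cell types were mostly not detected, with 0 of 4 endothelial markers, only CD68 of 5 leukocyte markers and only COL1A1 of 9 fibroblast markers detected on every array. Precision is limited by having 3 arrays a group.

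**Figure D1:**
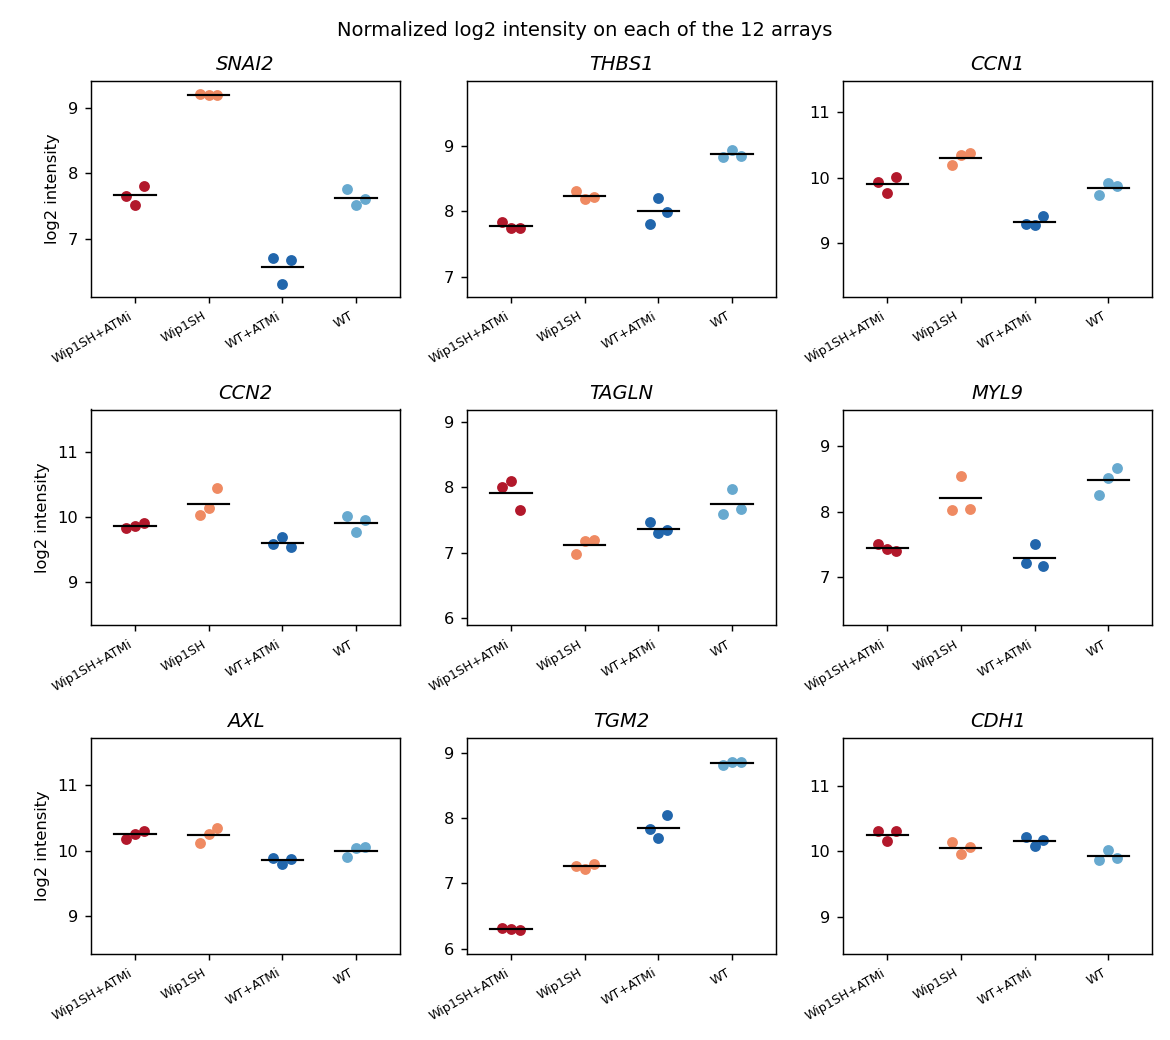
Normalized log2 intensity of the tested probe of each of the 9 genes (vertical axis, the same span of log2 units in every panel) on the 3 arrays of each group; each point is 1 array and each bar the group mean. SNAI2 is highest on the 3 Wip1SH arrays and lowest on the 3 WT+ATMi arrays, while TGM2 is highest in WT and lowest in Wip1SH+ATMi with no overlap between any groups.

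The levels of SNAI2 fell into 3 tiers. In hairpin cells the log2 intensity was 7.65, 7.52 and 7.81 for Wip1SH+ATMi and 9.21, 9.19 and 9.19 for Wip1SH. Without the hairpin it was 6.71, 6.31 and 6.67 in WT+ATMi and 7.76, 7.51 and 7.60 in WT. Wip1SH was highest and WT+ATMi lowest, and the middle tier was Wip1SH+ATMi and WT, whose arrays overlapped.

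With the inhibitor, SNAI2 fell 2.90-fold in Wip1SH cells (log2 fold change of Wip1SH+ATMi over Wip1SH -1.53 ± 0.12, standard error, n = 3 arrays per group; limma, adjusted p = 2.86e-05). Of the 11785 genes, 6 changed by more in that comparison. In RNA from whole cultures, fewer cells with a transcript and less of it per cell cannot be told apart. The size of the fall in Wip1SH cells was computed from no array of WT+ATMi or WT, apart from the shared normalization. Its standard error and adjusted p, though, use a spread estimated over all 12 arrays. The comparison also shares the Wip1SH arrays with Wip1SH against WT, in which SNAI2's rise was already known. In WT cells the inhibitor difference of SNAI2 was -1.06 ± 0.12, given as a description. The difference between the inhibitor effects in the 2 cell populations, an interaction that uses all 12 arrays, was -0.47 ± 0.16 and did not pass the threshold (adjusted p = 0.142), but it passed with a background offset of 50 or with no background correction, and the adjusted p ran from 0.00466 to 0.264 over 23 alternatives.

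Hairpin cells had more SNAI2 than WT cells both with and without the inhibitor. Under the inhibitor SNAI2 in Wip1SH+ATMi exceeded that in WT+ATMi cells 2.14-fold (log2 fold change 1.09 ± 0.12, adjusted p = 9.01e-05), a comparison that shares the WT+ATMi arrays with the one in which SNAI2's fall was known. Without the inhibitor the difference of Wip1SH from WT was 1.57 ± 0.12, as a description. Wip1SH+ATMi and WT differed by 0.04 ± 0.12 (adjusted p = 0.827), so no difference was detected between cells with both treatments and cells with neither. This comparison shares the WT arrays with both of those in which SNAI2's values were already known. The difference of Wip1SH+ATMi from WT ran from -0.6 to 0.46 over 24 alternatives. It passed the threshold when array medians were set equal over all probes (adjusted p = 0.0301).

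The other SNAI2 probe also had Wip1SH highest and WT+ATMi lowest, with smaller differences. Its log2 intensity was 6.78, 6.72 and 6.94 in Wip1SH+ATMi, 8.03, 7.91 and 8.16 in Wip1SH, 6.74, 6.28 and 6.19 in WT+ATMi, and 7.16, 6.91 and 6.94 in WT. Wip1SH stood above all other arrays on this probe too, while 1 WT+ATMi array lay within the Wip1SH+ATMi range. Its difference of Wip1SH+ATMi from Wip1SH was -1.22 ± 0.14, and that from WT+ATMi was 0.41 ± 0.14.

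CCN1, also called CYR61, encodes a secreted matricellular protein that binds integrins, and it is a standard readout of YAP activity. The 12 arrays gave a log2 intensity of 9.94, 9.77 and 10.01 in Wip1SH+ATMi, 10.19, 10.35 and 10.38 in Wip1SH, 9.29, 9.28 and 9.41 in WT+ATMi, and 9.74, 9.92 and 9.87 in WT. The tiers were those of SNAI2, with Wip1SH at the top, WT+ATMi at the bottom, and Wip1SH+ATMi and WT overlapping between them. CCN1 fell with the inhibitor in Wip1SH cells (-0.40 ± 0.09, adjusted p = 0.00821) and was higher in Wip1SH+ATMi than under the inhibitor alone (0.58 ± 0.09, adjusted p = 0.00106, with WT+ATMi arrays shared with the comparison that chose it). Wip1SH+ATMi differed from WT by 0.06 ± 0.09 (adjusted p = 0.603, with WT arrays shared with the comparison that chose it). That difference ran from 0.01 to 0.53 over 24 alternatives and passed when array medians were set equal over all probes (adjusted p = 0.00466). The descriptive differences of CCN1 were -0.52 ± 0.09 for WT+ATMi from WT and 0.46 ± 0.09 for Wip1SH from WT.

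CCN2, or CTGF, is the close relative of CCN1 and the YAP target whose promoter with 3 TEAD letters is printed above. CCN2 had a log2 intensity of 9.83, 9.87 and 9.91 in Wip1SH+ATMi and 10.03, 10.14 and 10.45 in Wip1SH, against 9.59, 9.70 and 9.54 in WT+ATMi and 10.01, 9.77 and 9.95 in WT. The order was again Wip1SH at the top and WT+ATMi at the bottom, with smaller gaps. The fall with the inhibitor in Wip1SH cells only just passed the threshold (-0.34 ± 0.11, adjusted p = 0.0428). It no longer passed under 16 of 24 alternatives, among them leaving out any Wip1SH+ATMi or WT+ATMi array, Wip1SH replicate 2 or 3, or WT replicate 3 (-0.37 to -0.21, adjusted p 0.0502 to 0.148), and the adjusted p over all alternatives ran from 0.014 to 0.621. Wip1SH+ATMi differed from WT+ATMi by 0.26 ± 0.11 (adjusted p = 0.112) with arrays that did not overlap, and from WT by -0.04 ± 0.11 (adjusted p = 0.803), a difference that turned to 0.43 (adjusted p = 0.0138) when array medians were set equal over all probes. The second CCN2 probe had differences of -0.28 ± 0.17 for Wip1SH+ATMi from Wip1SH and -0.47 ± 0.17 for WT+ATMi from WT. For Wip1SH from WT it had 0.14 ± 0.17, with arrays that overlapped, against a descriptive 0.3 ± 0.11 on the tested probe.

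THBS1 encodes thrombospondin 1, a secreted glycoprotein that binds CD47 and can activate latent TGF-beta. THBS1 signals, on the log2 scale, were 7.84, 7.75 and 7.75 in Wip1SH+ATMi, 8.31, 8.18 and 8.22 in Wip1SH, 7.80, 8.20 and 7.99 in WT+ATMi, and 8.83, 8.93 and 8.84 in WT. WT was above all other arrays, unlike the pattern of SNAI2, CCN1 and CCN2. THBS1 fell with the inhibitor in Wip1SH cells (-0.45 ± 0.10, adjusted p = 0.00627) and was 2.12-fold lower in Wip1SH+ATMi than in WT (-1.09 ± 0.10, adjusted p = 1.12e-05, with the WT arrays shared with the comparison that chose it). Wip1SH+ATMi and WT+ATMi overlapped and differed by -0.22 ± 0.10 (adjusted p = 0.129). Without WT+ATMi replicate 1 that difference was -0.32 and passed the threshold (adjusted p = 0.0363, against a range up to 0.675 over the alternatives). As a description, THBS1 differed by -0.87 ± 0.10 between WT+ATMi and WT and by -0.63 ± 0.10 between Wip1SH and WT.

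AXL encodes a receptor tyrosine kinase for the ligand GAS6 and is often high in mesenchymal carcinoma cells. Normalized log2 intensities of AXL were 10.18, 10.26 and 10.31 in Wip1SH+ATMi, 10.12, 10.26 and 10.35 in Wip1SH, 9.89, 9.80 and 9.87 in WT+ATMi, and 9.90, 10.04 and 10.06 in WT. All 6 hairpin arrays were above all 6 WT and WT+ATMi arrays. With the inhibitor, the arrays overlapped in Wip1SH cells and were lower without overlap in WT cells. AXL rose in Wip1SH+ATMi relative to WT+ATMi (0.40 ± 0.08, adjusted p = 0.00542), a call lost with array medians equal over all probes (0.38, adjusted p = 0.0798) and with detected probes per array as a covariate (0.37, adjusted p = 0.0564). Its difference of Wip1SH+ATMi from Wip1SH was 0.01 ± 0.08 (adjusted p = 0.973). Against WT the rise was 0.25 ± 0.08 (adjusted p = 0.0289), a call lost without Wip1SH+ATMi replicate 2 or 3 or WT replicate 1 (0.20 to 0.25, adjusted p 0.06 to 0.104, and 0.000323 to 0.831 over all alternatives). The second AXL probe gave 0.53 ± 0.10 for Wip1SH+ATMi from WT+ATMi and 0.14 ± 0.10 for Wip1SH+ATMi from Wip1SH.

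**Figure D2:**
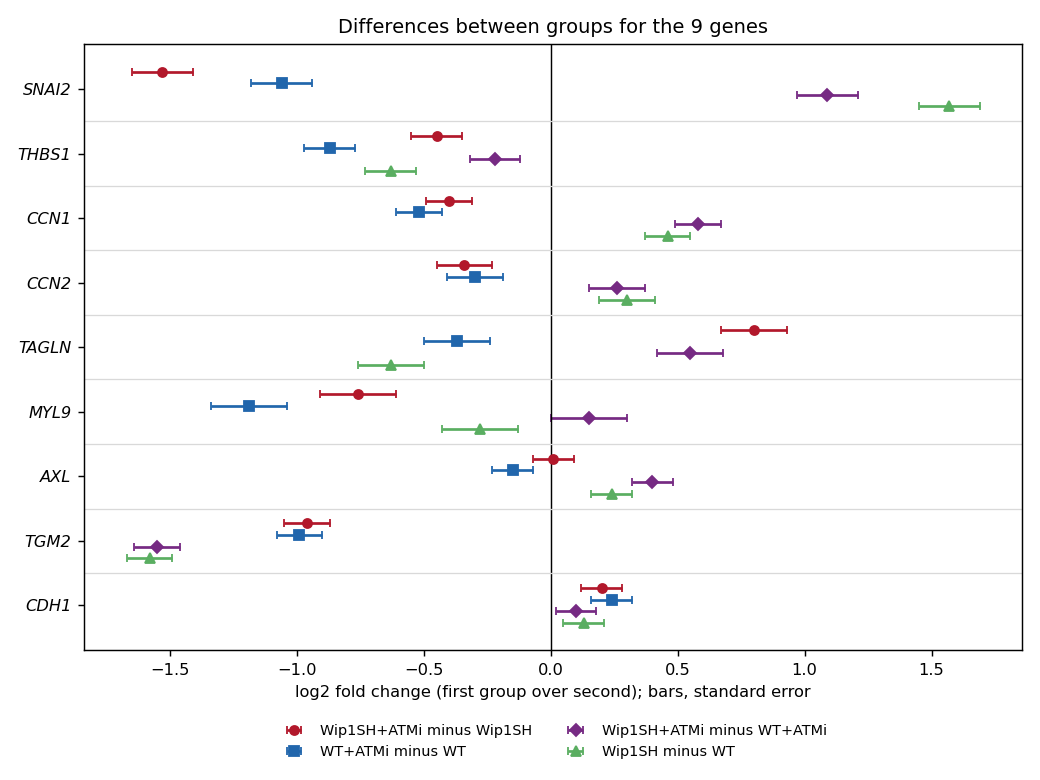
Log2 fold change of each of the 9 genes (horizontal axis) in 4 comparisons of groups, with standard errors as bars. SNAI2 lies at -1.53 for Wip1SH+ATMi over Wip1SH and at 1.09 for Wip1SH+ATMi over WT+ATMi, and TGM2 lies below 0 in all 4 comparisons.

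MYL9 and TAGLN encode actin-cytoskeleton proteins of smooth muscle and stromal cells, and they moved differently in Wip1SH cells. MYL9 is a regulatory light chain of non-muscle and smooth muscle myosin. Arrays read 7.51, 7.43 and 7.39 (log2 intensity) in Wip1SH+ATMi, 8.02, 8.55 and 8.04 in Wip1SH, 7.21, 7.50 and 7.16 in WT+ATMi, and 8.26, 8.52 and 8.66 in WT. The arrays split by the inhibitor, with all 6 treated arrays below all 6 untreated ones. MYL9 fell 1.69-fold with the inhibitor in Wip1SH cells (-0.76 ± 0.15, adjusted p = 0.0045) and was lower in Wip1SH+ATMi than in WT (-1.04 ± 0.15, adjusted p = 0.000273, with WT arrays shared with the comparison that chose it). Wip1SH+ATMi and WT+ATMi differed by 0.15 ± 0.15 (adjusted p = 0.514), and the descriptive differences were -1.19 ± 0.15 for WT+ATMi from WT and -0.28 ± 0.15 for Wip1SH from WT.

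The probes of MYL9 disagreed. On the second probe the log2 intensity was 7.50, 7.71 and 7.58 in Wip1SH+ATMi and 7.53, 7.72 and 7.70 in Wip1SH, which overlapped, and its difference was -0.05 ± 0.12. Its difference of WT+ATMi from WT was -0.47 ± 0.12. Against WT, whose arrays were at 7.64, 7.88 and 7.86 and overlapped those of Wip1SH+ATMi, it was -0.20 ± 0.12. With the mean of both probes the fall in Wip1SH cells was -0.40 (adjusted p = 0.037, in a range of 0.000402 to 0.307 over the alternatives).

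TAGLN, transgelin or SM22, is an actin-binding protein used as a marker of smooth muscle and myofibroblasts. For TAGLN the log2 intensity was 8.01, 8.10 and 7.65 in Wip1SH+ATMi, 6.98, 7.18 and 7.20 in Wip1SH, 7.47, 7.30 and 7.34 in WT+ATMi, and 7.59, 7.97 and 7.67 in WT. Wip1SH was lowest here and Wip1SH+ATMi highest, with Wip1SH+ATMi overlapping WT. TAGLN rose 1.74-fold with the inhibitor in Wip1SH cells (0.80 ± 0.13, adjusted p = 0.00173), whereas its difference of WT+ATMi from WT was -0.37 ± 0.13. The interaction was 1.17 ± 0.19 (adjusted p = 0.00936), and 3.11% of all genes passed the threshold for the interaction, 1.90% as higher. Of the 9 genes only TAGLN passed here, apart from SNAI2 under the 2 background settings named above, and TAGLN passed under all 23 alternatives, at 0.81 to 1.31 (adjusted p 0.000554 to 0.039).

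Relative to WT+ATMi, TAGLN was higher in Wip1SH+ATMi by 0.55 ± 0.13 (adjusted p = 0.0123). With the mean of its kept probes that difference was 0.30 and did not pass (adjusted p = 0.0675, the highest of a range that began at 0.00305). Of its 2 other kept probes, the dimmer had a difference of 0.01 ± 0.16 for Wip1SH+ATMi from Wip1SH and an interaction of 0.22 ± 0.23, and it was detected on only 1 to 3 arrays of each group. The second had 0.36 ± 0.23 and an interaction of 1.03 ± 0.32. As a description, the tested probe differed by -0.63 ± 0.13 between Wip1SH and WT.

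Of the 4 smooth muscle markers, ACTA2 was detected on every array and MYH11, DES and CNN1 on none. Their summed linear intensity was 1020 to 1220 in Wip1SH+ATMi, 1080 to 1220 in Wip1SH, 1020 to 1100 in WT+ATMi and 816 to 946 in WT. ACTA2 was the only detected member of this sum, 3 of the 4 ranges overlapped, and its part in the TAGLN and MYL9 values was not tested.

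**Figure D3:**
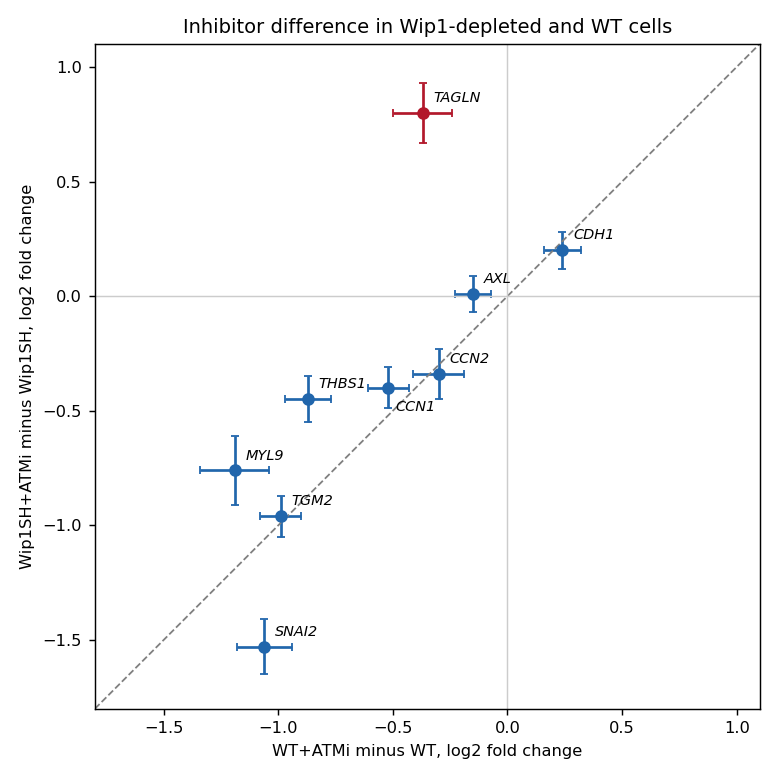
Difference with the inhibitor for each of the 9 genes in Wip1SH cells (vertical axis, Wip1SH+ATMi minus Wip1SH) and in WT cells (horizontal axis, WT+ATMi minus WT), as log2 fold changes with standard errors; the dashed line marks equal values. TAGLN, in red, is at 0.80 and -0.37, away from the line, and SNAI2 is lowest on the vertical axis at -1.53.

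**Figure D4:**
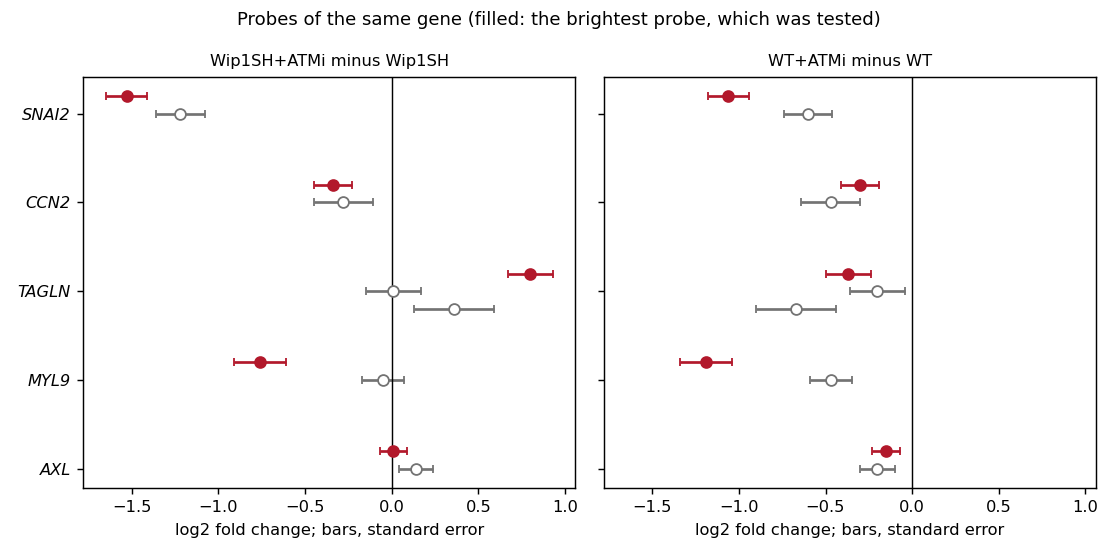
Log2 fold change with the inhibitor on every kept probe of the 5 genes with several kept probes, in Wip1SH cells (left) and in WT cells (right), with standard errors; filled points are the tested probes. The probes of SNAI2 lie on the same side at -1.53 and -1.22 in Wip1SH cells, while those of MYL9 lie at -0.76 and -0.05.

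TGM2 encodes tissue transglutaminase, which crosslinks matrix proteins and is induced during mesenchymal transition in many carcinoma cells. The 3 arrays of each group read 6.32, 6.31 and 6.29 (log2 intensity) in Wip1SH+ATMi, 7.27, 7.22 and 7.30 in Wip1SH, 7.83, 7.69 and 8.04 in WT+ATMi, and 8.81, 8.85 and 8.86 in WT. No groups overlapped, and both the hairpin and the inhibitor went with less TGM2. It fell 1.94-fold with the inhibitor in Wip1SH cells (-0.96 ± 0.09, adjusted p = 6.71e-05) and was 2.92-fold lower in Wip1SH+ATMi relative to WT+ATMi (-1.55 ± 0.09, adjusted p = 6.37e-07). Cells with both treatments had 5.80-fold less than WT cells (-2.54 ± 0.09, adjusted p = 6.64e-09), and 3 of the 11785 genes changed by more. Over 24 alternatives that difference ran from -2.78 to -1.76, and the one from WT+ATMi from -1.63 to -0.97. Both stayed called under all of them.

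The descriptive differences of TGM2 were -0.99 ± 0.09 for WT+ATMi from WT and -1.58 ± 0.09 for Wip1SH from WT. The interaction was 0.03 ± 0.12 (adjusted p = 0.925), so the inhibitor difference in Wip1SH cells was not found to differ from that in WT cells. The 2 other TGM2 probes were near background, detected on 1 and 2 of 12 arrays, and were not kept.

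CDH1, the epithelial cadherin that Snail proteins repress, differed little between the groups. CDH1 arrays read 10.30, 10.16 and 10.30 (log2 intensity) in Wip1SH+ATMi, 10.14, 9.96 and 10.06 in Wip1SH, 10.21, 10.08 and 10.17 in WT+ATMi, and 9.86, 10.01 and 9.89 in WT. Neighbouring groups in the order of means overlapped. CDH1 was higher in Wip1SH+ATMi than in WT (0.33 ± 0.08, adjusted p = 0.00634). With the inhibitor in Wip1SH cells its difference was 0.20 ± 0.08 (adjusted p = 0.0974), with arrays that did not overlap, and from WT+ATMi it was 0.10 ± 0.08 (adjusted p = 0.449). The descriptive differences were 0.24 ± 0.08 for WT+ATMi from WT and 0.13 ± 0.08 for Wip1SH from WT. The lowest mean of CDH1 was in WT, whose arrays overlapped those of Wip1SH, and a relation of CDH1 to SNAI2 was not tested. The summed linear intensity of the 9 epithelial markers was 41900 to 45200 in Wip1SH+ATMi, 56500 to 60100 in Wip1SH, 51700 to 52700 in WT+ATMi and 58900 to 62000 in WT. The brightest markers weigh most in this sum. Of the 5 detected on every array, KRT8, KRT18 and KRT19 averaged 14.12, 9.85 and 14.79 in WT and 13.15, 8.9 and 14.08 in Wip1SH+ATMi. EPCAM and CDX2 went the other way, from 13.63 and 9.17 in WT to 13.95 and 9.59 in Wip1SH+ATMi. The part of this sum in the CDH1 values was not tested.

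Counted over the 9 genes, 6 fell and 1 rose with the inhibitor in Wip1SH cells, where 23.3% of all genes tested were called, 14.3% as higher and 9.02% as lower. SNAI2, THBS1, CCN1, CCN2, MYL9 and TGM2 fell and TAGLN rose, while AXL and CDH1 were not called. The median log2 fold change of the 9 was -0.40, against 0.02 over all genes tested. The genes were chosen partly for their values in WT cells, so this share says nothing about how such genes behave in general. Detected probes per array moved with the inhibitor: with that number as a covariate, SNAI2 (-1.87, adjusted p = 0.00172) and TGM2 (-1.09, adjusted p = 0.0146) stayed called, and the other 5 did not, although none changed sign. In Wip1SH+ATMi against WT only TGM2 stayed called with it. With array medians equal over all probes, 4 of the 9 were called, as THBS1 (-0.31, adjusted p = 0.0995), CCN1 (-0.23, adjusted p = 0.287) and CCN2 (-0.16, adjusted p = 0.452) no longer passed.

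In WT+ATMi against WT, 8 of the 9 genes were lower on all 3 WT+ATMi arrays than on all 3 WT arrays and CDH1 was higher on all of them. Of all genes tested, 41.6% did not overlap there, 17.2% as lower and 24.4% as higher, and the choice of members used this comparison, so the count is only a description. AXL, CCN2 and TAGLN, at -0.15, -0.30 and -0.37, were at 0.33, 0.19 and 0.08 with array medians equal over all probes. In Wip1SH against WT, SNAI2, CCN1, CCN2 and AXL were higher and THBS1, TAGLN and TGM2 lower with no overlap, where 44.9% of all genes did not overlap, 23.6% as higher and 21.3% as lower. MYL9 and CDH1 overlapped, and MYL9, at -0.28, was at 0.02 with array medians equal over all probes.

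Among cells given the inhibitor, Wip1SH+ATMi had 4 of the 9 genes higher (SNAI2, CCN1, TAGLN and AXL) and TGM2 lower relative to WT+ATMi, where 21.2% of all genes were called, 10.5% as higher and 10.7% as lower. Their median log2 fold change was 0.26, against 0.01 over all genes. In Wip1SH+ATMi against WT, AXL and CDH1 were higher and THBS1, MYL9 and TGM2 lower, where 40.7% of all genes were called, 23.5% as higher and 17.1% as lower. The median of the 9 was 0.04 in that comparison, equal to that of all genes.

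Over the 12 arrays, CCN1 had the log2 intensities most like those of SNAI2 among the other members, with a Pearson correlation of 0.950, and 15 of 11776 other genes were more alike. CCN2 followed at 0.874, AXL at 0.734 and MYL9 at 0.547. THBS1 was at 0.135, CDH1 at -0.217, TGM2 at -0.231 and TAGLN at -0.383. The arrays share 4 groups and a normalization, so these values describe a common order of groups. SNAI2, THBS1, CCN1 and MYL9 were chosen with their lower values in WT+ATMi than in WT known. Their likeness to each other is therefore partly set by that choice.

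Among all genes outside the 9, TNFRSF10A, a death receptor for TRAIL, was most like SNAI2 at 0.983, followed by ARRDC4, an arrestin-domain protein, at 0.982, BCL7B at 0.978, CHIC2 at 0.974 and HBEGF, a ligand of the EGF receptor, at 0.971. ARRDC4 averaged 7.46 ± 0.13 (SD, n = 3) in Wip1SH+ATMi, 8.79 ± 0.07 in Wip1SH, 6.36 ± 0.23 in WT+ATMi and 7.25 ± 0.11 in WT, with tiers like those of SNAI2. HBEGF spanned less, at 10.06 ± 0.03, 10.61 ± 0.08, 9.63 ± 0.06 and 10.10 ± 0.04 in the same order of groups. The most opposite genes were HBG1 at -0.984, HBE1 at -0.982, LMNB2 at -0.979, LFNG at -0.975 and HBG2 at -0.969. HBG1 and HBG2, both fetal globins, are near-identical copies whose probes may not tell them apart. LFNG, a glycosyltransferase that modifies Notch, averaged 7.45 ± 0.14 in Wip1SH+ATMi, 5.84 ± 0.41 in Wip1SH, 8.51 ± 0.10 in WT+ATMi and 7.44 ± 0.01 in WT.

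Further YAP targets went in both directions. Of 19 further genes of a published YAP signature 14 were measured, and in Wip1SH+ATMi against Wip1SH 4 fell, 2 rose and 8 were not called, with a median of -0.11, where 23.3% of all genes were called. F3, tissue factor, fell 2.00-fold (-1.0 ± 0.13, adjusted p = 0.000507), and GADD45A, a p53-responsive growth arrest gene, fell by 0.37 (adjusted p = 0.00639). MYOF, a membrane repair protein, had the smaller of the 2 rises, by 0.28 ± 0.07 (adjusted p = 0.0124). ANKRD1, another common YAP readout, had a difference of -0.40 ± 0.24 (adjusted p = 0.27). In the remaining comparisons the 14 genes had 2 higher and 3 lower for Wip1SH over WT (32.2% of all genes called), 3 and 2 for WT+ATMi over WT (25.5%), 3 and 3 for Wip1SH+ATMi over WT+ATMi (21.2%), and 2 and 5 for Wip1SH+ATMi over WT (40.7%). NT5E, the ectonucleotidase CD73, was 3.12-fold lower in Wip1SH+ATMi relative to WT+ATMi (-1.64 ± 0.09, adjusted p = 6.37e-07).

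Of 19 Hippo pathway genes 16 were measured, and 1 rose, 1 fell and 14 were not called with the inhibitor in Wip1SH cells, where 23.3% of all genes were called. SAV1, a scaffold of the Hippo kinases, fell 2.00-fold there (-1.0 ± 0.15, adjusted p = 0.000913). YAP1 differed by 0.09 ± 0.11 (adjusted p = 0.602) and its paralog WWTR1, or TAZ, by -0.37 ± 0.14 (adjusted p = 0.0809). YAP1 was higher in Wip1SH+ATMi than in WT (0.53 ± 0.11, adjusted p = 0.00215) and in Wip1SH than in WT (0.44 ± 0.11, adjusted p = 0.00898). YAP1 was also higher in WT+ATMi than in WT (0.38 ± 0.11, adjusted p = 0.022). That rise did not pass in every alternative, and its adjusted p reached 0.653. Between Wip1SH+ATMi and WT+ATMi no difference of YAP1 was detected (0.15 ± 0.11, adjusted p = 0.362). TAOK1, a kinase upstream of the Hippo kinases, was 2.49-fold higher in Wip1SH+ATMi relative to WT+ATMi (1.32 ± 0.07, adjusted p = 6.37e-07), and TEAD4 was lower in Wip1SH than in WT (-0.78 ± 0.12, adjusted p = 0.000837). The Hippo list had 4 higher and 1 lower for Wip1SH over WT (32.2% of all genes called), 2 and 3 for WT+ATMi over WT (25.5%), 2 and 2 for Wip1SH+ATMi over WT+ATMi (21.2%), and 7 and 2 for Wip1SH+ATMi over WT (40.7%). The shares over all genes are the same for the lists that follow.

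SRF and actin genes, the group of TAGLN and MYL9, had 16 of 18 measured, and with the inhibitor in Wip1SH cells 5 fell, 1 rose and 10 were not called, where 9.02% of all genes fell and 14.3% rose. The number that fell was 2 to 5 with any 1 of the 12 arrays left out. FHL2, a LIM-domain cofactor, fell by 0.55 (adjusted p = 0.000624). SRF itself differed by 0.08 ± 0.09 (adjusted p = 0.547). TAGLN2, the relative of TAGLN, was 2.03-fold lower in Wip1SH+ATMi relative to WT+ATMi (-1.02 ± 0.11, adjusted p = 0.000106), the comparison in which TAGLN was higher. The counts of higher and lower genes were 3 and 3 for Wip1SH over WT, 3 and 2 for WT+ATMi over WT, 1 and 3 for Wip1SH+ATMi over WT+ATMi, and 3 and 4 for Wip1SH+ATMi over WT.

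SNAI2 was the only Snail gene among the kept probes. Of 6 other transition factors, TWIST1 alone was measured and was not called in any comparison, at 0.26 ± 0.15 (adjusted p = 0.258) for Wip1SH+ATMi from Wip1SH. SNAI1, TWIST2 and ZEB1 were detected on 0 of 12 arrays, and SNAI3 and ZEB2 on 1. Only 7 of 18 mesenchymal genes were measured, and FN1, CDH2, SPARC, COL3A1, COL4A1, MMP2, LOX and FBN1 were detected on 0 arrays. Of the 7, COL1A1 rose with the inhibitor in Wip1SH cells (0.55 ± 0.10, adjusted p = 0.00261), ITGA5 rose and VIM fell. ITGA5, a fibronectin receptor subunit, was at 0.59 ± 0.15 (adjusted p = 0.0158), a call lost without Wip1SH+ATMi replicate 2 (0.54, adjusted p = 0.057). VIM, vimentin, was at -0.36 ± 0.10 (adjusted p = 0.0227), lost without Wip1SH+ATMi replicate 1 or Wip1SH replicate 2 or 3 (adjusted p 0.051 to 0.0775). The 7 had 0 higher and 3 lower for Wip1SH over WT, 2 and 0 for WT+ATMi over WT, 0 and 2 for Wip1SH+ATMi over WT+ATMi, and 0 and 2 for Wip1SH+ATMi over WT. For Wip1SH over WT, S100A4 (-0.21, adjusted p = 0.0484) was lost without any of the 12 arrays and CD44 (-0.23, adjusted p = 0.0276) without any of 5, so that 1 or 2 genes were lower. For WT+ATMi over WT, TIMP1 (0.26, adjusted p = 0.0476) was lost without any of 10 arrays. The summed intensity of the fibroblast markers was 372 to 406 in Wip1SH+ATMi, 335 to 350 in Wip1SH, 371 to 391 in WT+ATMi and 398 to 409 in WT. COL1A1 is itself one of these markers, and COL3A1, LUM, PDGFRA, PDGFRB, FAP and THY1 were detected on no array.

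Of 19 epithelial junction genes 15 were measured, and with the inhibitor in Wip1SH cells 3 rose and 2 fell, with a median of 0.00, where 23.3% of all genes were called. CLDN3, a tight junction claudin, rose 1.77-fold (0.82 ± 0.15, adjusted p = 0.00249) and PKP3, a desmosomal plakophilin, fell 1.95-fold (-0.96 ± 0.14, adjusted p = 0.00085). In Wip1SH+ATMi against WT 7 were higher and 2 lower, among them EPCAM (0.32 ± 0.08, adjusted p = 0.00875) and ESRP1, an epithelial splicing regulator (0.71 ± 0.13, adjusted p = 0.00117). The counts were 6 higher and 2 lower for Wip1SH over WT, 4 and 1 for WT+ATMi over WT, and 1 and 2 for Wip1SH+ATMi over WT+ATMi.

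Of 14 TGF-beta pathway genes 10 were measured, with 1 rising and 1 falling with the inhibitor in Wip1SH cells, where 23.3% of all genes were called. BAMBI, a decoy receptor of the pathway, was lower in Wip1SH+ATMi relative to WT+ATMi (-0.59 ± 0.08, adjusted p = 0.000605) and in Wip1SH than in WT (-0.61 ± 0.08, adjusted p = 0.000367). The list had 1 higher and 3 lower for Wip1SH over WT, 4 and 1 for WT+ATMi over WT, 0 and 2 for Wip1SH+ATMi over WT+ATMi, and 3 and 3 for Wip1SH+ATMi over WT.

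Relatives and partners of the 9 genes included 6 that rose. Of 17, 11 were measured, and with the inhibitor in Wip1SH cells 6 rose, none fell and 5 were not called, with a median of 0.29, where 14.3% of all genes rose. THBS3 rose 1.70-fold (0.77 ± 0.13, adjusted p = 0.00243) where THBS1 fell, and CCN3 rose by 0.45 ± 0.09 (adjusted p = 0.00488) where CCN1 and CCN2 fell. PROS1, a ligand of TYRO3, rose by 0.56 ± 0.10 (adjusted p = 0.00323), and TYRO3, the receptor related to AXL, by 0.42 ± 0.10 (adjusted p = 0.011). The list had 0 higher and 2 lower for Wip1SH over WT, 4 and 0 for WT+ATMi over WT, 0 and 0 for Wip1SH+ATMi over WT+ATMi, and 5 and 0 for Wip1SH+ATMi over WT. Over all 8 lists, 30 genes were called for Wip1SH+ATMi over Wip1SH, and 0 once detected probes per array entered as a covariate. With that covariate the calls numbered 8 for Wip1SH over WT (33 without it), 0 for WT+ATMi over WT (31), 7 for Wip1SH+ATMi over WT+ATMi (21) and 2 for Wip1SH+ATMi over WT (45). Among the calls lost were those of YAP1 in Wip1SH over WT (adjusted p = 0.224) and of YAP1 and ESRP1 in Wip1SH+ATMi over WT (adjusted p = 0.662 and 0.533). With any 1 array left out, 22 to 33 list genes were called for Wip1SH over WT, 19 to 30 for WT+ATMi over WT, 22 to 30 for Wip1SH+ATMi over Wip1SH, 13 to 21 for Wip1SH+ATMi over WT+ATMi and 38 to 46 for Wip1SH+ATMi over WT.

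**Figure D5:**
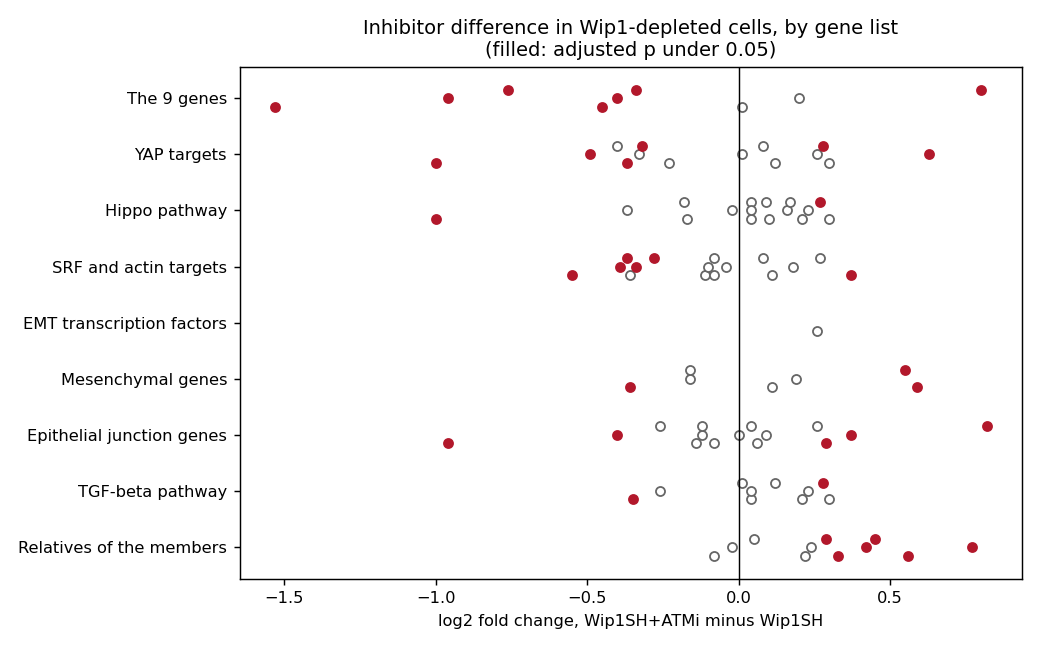
Log2 fold change of Wip1SH+ATMi over Wip1SH (horizontal axis) for the 9 genes and for each measured gene of the 8 further lists (rows); each point is 1 gene, filled where the adjusted p was under 0.05. In the row of the 9 genes 6 filled points lie below 0 and 1 above it, and in the row of relatives all 6 filled points lie above 0.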

How the data were processed

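Total RNA of HCT116 cells was hybridised, as biotin-labelled cRNA per the labels' protocols, to 12 Illumina bead arrays. The deposited intensity of each probe is linear and not normalized, per the file headers. Each has a detection p-value beside it, per the file headers. A second deposited table holds log2 values, normalized by a method not given in the sources used here. The log2 values computed here from the intensities match them within 5e-06.

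Background was corrected with limma's neqc (limma 3.58.1, R 4.3.3; offset 16, background parameters estimated via the detection p-values), followed by quantile normalization and log2. Probes with a detection p under 0.05 on at least 3 of the 12 arrays were kept (15772), and the brightest kept probe stood for each gene (11785 genes; 3150 had several kept probes). Groups came from the labels. All 12 arrays entered a fit with a mean for each group (lmFit, eBayes), 6 comparisons were tested two-sided, and p-values were adjusted over all genes by Benjamini-Hochberg with a threshold of 0.05. The p-values measure the spread between cultures of 1 line. The median standard error was 0.11 for a difference and 0.15 for the interaction. The procedure was tested on simulated data.

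The 9 genes, the further lists and the tests were chosen with earlier results of these data known. The rule for naming genes took all 9, PPM1D, the 5 genes most like and the 5 most opposite to SNAI2, and from each list up to 4 genes with the smallest adjusted p per comparison. YAP1, WWTR1, SNAI1, ZEB1, VIM, EPCAM and SRF were named whatever their values. Only some of the genes this rule took from the lists are described, and a result of the YAP list is not reported here. ANKRD1, TWIST1 and genes named as not detected were added after their values were seen. Lists were not tested as sets. The alternatives were other background corrections, array scalings, detection filters and probe summaries, the deposited log2 values, array weights, a replicate block, a covariate, only the groups compared, and each array left out.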

Additional observations from a re-analysis of the deposited data

Results flagged for a closer look

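The inhibitor difference in Wip1SH cells differed from that in WT cells, by the interaction term of limma, for TAGLN among the 9 genes (1.17, adjusted p = 0.00936) and for 3 genes of the further lists. GADD45A had an interaction of -0.64 (adjusted p = 0.0114): its difference with the inhibitor was -0.37 in Wip1SH cells and 0.28 in WT cells. COL1A1 had 0.64 (adjusted p = 0.0285), a call lost when any of 8 arrays was left out (0.56 to 0.66, adjusted p 0.053 to 0.0779), all except Wip1SH+ATMi replicate 1, Wip1SH replicate 3, WT+ATMi replicate 2 and WT replicate 3. CALD1, an actin-binding protein, had -0.53 (adjusted p = 0.0301), lost when any of 9 arrays was left out (-0.55 to -0.46, adjusted p 0.0528 to 0.0819), all except Wip1SH+ATMi replicates 1 and 2 and WT replicate 3. With the replicate block, neither COL1A1 nor CALD1 passed. Of all genes tested, 3.11% passed the threshold for the interaction.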

How the results depend on the processing

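Of 855 values of the 9 genes in the 4 tested comparisons, under 24 alternatives (23 for the interaction, which needs all groups), 790 kept their direction and side of the threshold, 25 that were not called changed sign or became 0 and stayed uncalled, 33 calls were lost, 6 gained and 1 reversed. Of 432 values in the 2 comparisons given as a description, 44 moved by more than the spread between replicates. The reversed one was CCN2 in Wip1SH+ATMi over WT, at 0.43 with array medians equal over all probes. That scaling moved the median of all genes to 0.24 for Wip1SH over WT, 0.43 for WT+ATMi over WT, 0.15 for Wip1SH+ATMi over Wip1SH, -0.01 for Wip1SH+ATMi over WT+ATMi, 0.40 for Wip1SH+ATMi over WT and -0.28 for the interaction. The share of higher calls was then 91.8%, 97.7%, 88%, 39.3%, 94.3% and 4.12% in that order, against 52.1%, 60.6%, 61.3%, 49.4%, 57.9% and 61% as reported; with medians equal over the tested probes it was 43.1%, 47.2% and 74% for WT+ATMi over WT, Wip1SH+ATMi over WT and the interaction, and with the covariate 37.5% for Wip1SH+ATMi over WT. Equal medians over all probes gave 7206 genes for WT+ATMi over WT (3002 as reported), 1289 for Wip1SH+ATMi over WT+ATMi (2495), 4 of the 9 for Wip1SH+ATMi over Wip1SH and 9 of 9 for Wip1SH+ATMi over WT. It also turned CRIM1 (0.15) and WWC1 (0.14) in WT+ATMi over WT, and VCL (0.03), VIM (0.01), JUP (0.08) and BAMBI (0.08) in Wip1SH+ATMi over WT.

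With detected probes per array, which move with the groups, as a covariate, the calls were 886 for Wip1SH over WT (3794 as reported), 33 for WT+ATMi over WT, 159 for Wip1SH+ATMi over Wip1SH (2750), 1183 for Wip1SH+ATMi over WT+ATMi, 40 for Wip1SH+ATMi over WT (4791) and 231 for the interaction (367). Of the 9 genes, 2 stayed called in Wip1SH+ATMi over Wip1SH and 1, TGM2, in Wip1SH+ATMi over WT, and SMAD2 turned to -0.01 there. For the interaction, no background correction gave 572 genes, that setting and an offset of 50 gave 2 of the 9, and leaving out 1 array gave 164 to 321 genes. Where no other cause is named, the cause was not tested.

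Whether the replicate numbers pair the arrays was not settled. Of 18 same-numbered pairs, 3 had a correlation of deviations over 0.1 (-0.0819 to 0.141), and 7 of 12 arrays matched best with their own number in another group. With the replicate block 2615 genes were called for Wip1SH+ATMi over Wip1SH and 6 of the 9, CCN2 being lost, and 295 for the interaction, with 1 of the 3 list genes. A beadchip block was not run, since the file headers name no beadchip. Of 2973 values of the other named genes, 369 calls were lost and 7 reversed. Probes near background limit what the second probes of TAGLN and TGM2 can show.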
